A study of Mus musculus with 10 samples.

Results

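The genes described are 10 vascular growth factors and receptors of the VEGF and angiopoietin families, chosen by symbol from the 24421 genes of a mouse lung RNA-seq count table. They comprise the ligands Vegfa, Vegfb, Vegfc and Angpt2 and the receptors Kdr, Flt1, Flt4, Nrp1, Tek and Tie1. All 10 had a row in the table and passed the filter on low counts. Of the 10 libraries, 5 came from regions of lung squamous cell carcinoma (SCC) in wild-type NIH Swiss mice given NTCU, a nitrosourea carcinogen that induces squamous lung tumours in mice. The other 5 came from regions of normal lung of untreated wild-type mice of the same stock. Differences between tumour and normal lung therefore cannot be told apart from those of NTCU treatment. Regions were laser-captured from formalin-fixed sections and total RNA was sequenced. Which animal each region came from is not in the labels. The spread tested is that between regions, so p-values would be too small where an animal gave more than 1 region.

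VEGF ligands act through receptor tyrosine kinases of endothelial cells. Vegfa binds Kdr, the main signalling receptor of blood vessels, and Flt1, which binds it tightly and also exists as a soluble decoy. Vegfb binds Flt1, Vegfc binds Flt4, the receptor best known from lymphatic vessels, and Nrp1 is a coreceptor that also binds semaphorins. Angpt1 activates the receptor Tek and keeps vessels quiet, Angpt2 is released by endothelial cells and in most settings opposes it, and Tie1 is an orphan partner of Tek. In mouse lung, alveolar epithelium, type 1 cells above all, is a main source of Vegfa for the surrounding capillaries.

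Kdr, Flt1 and Tek, receptors that were lower in SCC, are shown by the 250 bases before their RefSeq start (GRCm38.p6, 5′ to 3′ on the strand of the gene), because these genes were low together. Capitals mark GGAA on either strand, the core of sites for ETS factors, which are regulators of endothelial genes. In the window of Vegfa, the ligand of highest level, capitals mark GGGCGG on either strand, the GC box.
Kdr, chr5:75978456-75978705, minus strand: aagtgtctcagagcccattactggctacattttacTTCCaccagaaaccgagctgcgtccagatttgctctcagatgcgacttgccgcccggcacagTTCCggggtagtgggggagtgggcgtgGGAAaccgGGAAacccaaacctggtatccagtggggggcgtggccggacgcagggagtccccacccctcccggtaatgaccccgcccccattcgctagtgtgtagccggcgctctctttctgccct
Flt1, chr5:147726012-147726261, minus strand: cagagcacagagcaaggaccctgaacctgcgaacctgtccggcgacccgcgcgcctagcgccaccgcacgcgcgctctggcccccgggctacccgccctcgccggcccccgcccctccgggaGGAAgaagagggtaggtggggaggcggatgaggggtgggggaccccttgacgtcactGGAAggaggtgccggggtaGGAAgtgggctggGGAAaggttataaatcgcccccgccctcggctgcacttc
Tek, chr4:94739039-94739288, plus strand: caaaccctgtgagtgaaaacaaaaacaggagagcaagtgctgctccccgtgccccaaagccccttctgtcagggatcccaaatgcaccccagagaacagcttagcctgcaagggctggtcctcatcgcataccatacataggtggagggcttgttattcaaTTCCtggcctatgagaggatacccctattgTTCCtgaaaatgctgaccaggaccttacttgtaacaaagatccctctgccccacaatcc
Vegfa, chr17:46032378-46032627, minus strand: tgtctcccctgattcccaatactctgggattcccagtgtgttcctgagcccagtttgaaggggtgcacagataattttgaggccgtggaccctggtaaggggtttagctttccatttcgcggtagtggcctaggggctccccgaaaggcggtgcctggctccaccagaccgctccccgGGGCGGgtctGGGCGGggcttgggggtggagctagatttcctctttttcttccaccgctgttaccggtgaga

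The Kdr and Flt1 windows each held 4 matches to GGAA, the Tek window held 2, and the Tie1 window held 7. Annotated exon covered 212 of the 250 bases of the Tie1 window, against 3 for Kdr and 0 for Flt1 and Tek. The Tie1 number is therefore not one of upstream sequence alone. Windows were found for 9 of the 10 genes. GGAA occurred in 93.4% of 32817 mouse promoter windows of the same length, with a median of 3 matches, so most promoters share it. The longer form CCGGAA, which overlaps GGAA, occurred in 12.0% of windows and once in that of Kdr. The first Vegfa window held GGGCGG at 2 places, a motif present in 32.7% of windows. Letters of the hypoxia response core, ACGTG on either strand, were in 16.6% of windows and were not found in the first Vegfa window. The second Vegfa window, with 218 of its 250 bases in annotated exon, held 1 match. Sequence farther upstream was not searched. TATAAA was in 12.4% of windows and in 1 place in that of Flt1.

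Total counts ran from 1004105 to 3691806 in SCC and from 1457641 to 6817106 in normal lung. Levels are given as CPM, the counts scaled to the library total. SCC 1, SCC 3 and SCC 4 stood apart by counts on chemosensory receptor genes, which lung should hardly express. Their level was 3.26, 3.28 and 3.497 CPM per kb of coding length, against 0.593 and 0.415 in SCC 2 and SCC 5 and at most 0.208 in normal lung. Each result was therefore also computed with only the pair of SCC libraries low in this signal, SCC 2 and SCC 5 (the low-signal pair), against the 5 normal libraries. It was computed once more after subtracting a background in proportion to transcript length, which amounted to 23.8%, 23.9% and 25.5% of all counts in SCC 1, SCC 3 and SCC 4.

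Of the 10 genes, 7 were lower in SCC (Vegfa, Kdr, Flt1, Flt4, Nrp1, Tek and Tie1), where 8.68% of the 13203 tested genes were lower. None was higher in edgeR's quasi-likelihood test, against 12.5% of all tested genes, and the number higher was also 0 at an unadjusted p under 0.05, in DESeq2 and in limma-voom. The same 7 genes had every SCC library below every normal library in CPM, as did 5.77% of tested genes. No gene had every SCC library above every normal library, which held for 8.81% of tested genes. The median log2 fold change was -2.44 over the 10 genes and 0.07 over all tested genes. In these bulk regions fewer cells of a type and less RNA per cell cannot be told apart.

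**Figure D1:**
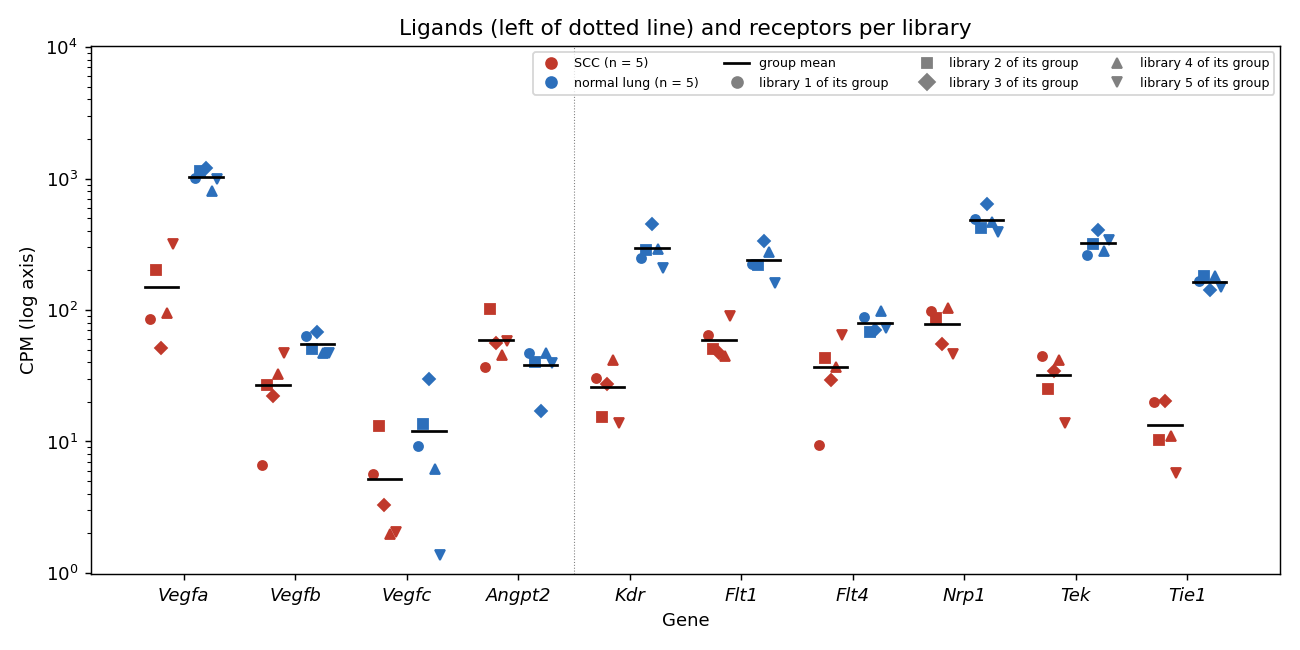
CPM of the 10 genes in each library on a log axis, with SCC in red left of normal lung in blue, marker shapes for the library within its group and black bars for the group mean. Red and blue points are separate for Vegfa and the 6 receptors and overlap for Vegfb, Vegfc and Angpt2.

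Vegfa, the main ligand of blood vessel growth (chromosome 17, 46016993 to 46032369, minus strand, GRCm38), had 84.8, 201, 51.7, 95.6 and 319 CPM in SCC 1 to SCC 5. In normal 1 to normal 5 it had 1002, 1146, 1210.3, 810.5 and 989 CPM. The groups did not overlap, and SCC 2 and SCC 5 stood above the other SCC libraries. The log2 fold change was -2.86 (SE 0.48, edgeR adjusted p = 0.000115 by the Benjamini-Hochberg method). It was -2.09 in the low-signal pair (edgeR adjusted p = 0.000416), and with the chemosensory level as a covariate the call was lost (-1.38, adjusted p = 0.202).

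Markers of alveolar type 1 cells fell beside Vegfa, with 12 of 12 lower and a median log2 fold change of -2.50. Their summed level was 739 to 2135 CPM in SCC and 6103 to 7677 CPM in normal lung. Ager, a receptor of type 1 cells, was at -3.89. All 12 alveolar type 2 markers were lower too, with 862 to 1438 CPM in SCC and 9381 to 12569 CPM in normal lung and Slc34a2, a phosphate transporter, at -4.20. The part of these cells in the Vegfa difference was not tested.

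Vegfb, a ligand of Flt1 (chromosome 19, 6982473 to 6987651, minus strand), had 6.60, 26.8, 22.0, 32.9 and 47.0 CPM in SCC 1 to SCC 5. It had 63.0, 50.6, 67.6, 46.7 and 47.3 CPM in normal 1 to normal 5. Only SCC 5 reached the lowest normal libraries. Its log2 fold change of -1.10 (SE 0.45) was not called (edgeR adjusted p = 0.0856) and was called without SCC 5 (-1.48, adjusted p = 0.0163). With all libraries it was called in limma-voom (-1.32, adjusted p = 0.00414) and in edgeR without a filter (-1.45, adjusted p = 0.0162). Vegfb was at -0.68 in the low-signal pair and at -0.059 with the chemosensory level as a covariate (edgeR adjusted p = 0.469 and 0.98).

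Vegfc, the lymphatic ligand (chromosome 8, 54077606 to 54187096, plus strand), was the lowest of the 10 genes. It had 6, 48, 6, 2 and 5 counts in SCC 1 to SCC 5 (5.66, 13.0, 3.30, 1.99 and 2.04 CPM). In normal 1 to normal 5 it had 26, 20, 203, 16 and 2 counts (9.31, 13.7, 29.8, 6.17 and 1.37 CPM). The groups overlapped from end to end, and the log2 fold change of -1.30 (SE 0.83) was not called (edgeR adjusted p = 0.293). That change was -2.02 without SCC 2. The estimated background exceeded the counts of Vegfc in SCC 1, SCC 3 and SCC 4.

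Angpt2, the ligand that in most settings opposes Angpt1 (chromosome 8, 18690263 to 18741562, minus strand), was not called in either direction. It had 36.8, 101, 56.1, 45.8 and 58.4 CPM in SCC 1 to SCC 5. It had 47.2, 40.3, 17.2, 46.7 and 39.8 CPM in normal 1 to normal 5. SCC 1 and SCC 4 lay within the normal range, with SCC 2 highest and normal 3 lowest of all. A log2 fold change of 0.52 (SE 0.41) was not called (edgeR adjusted p = 0.418). It ranged from 0.19 to 1.04 over 21 alternatives with no call in any.

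Angpt2 lies whole within Mcph1, a gene of the opposite strand, and the 2 share no annotated exon. Reads from introns of Mcph1 would fall on Angpt2 if strand was not used in counting, which the sources used here do not give. Mcph1 was counted at 12.2 to 29.8 CPM in SCC and at 7.16 to 17.4 CPM in normal lung.

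Kdr, the main VEGF receptor of blood vessels (chromosome 5, 75932827 to 75978458, minus strand), had 30.2, 15.4, 27.5, 41.8 and 13.9 CPM in SCC 1 to SCC 5. It had 249, 284, 454, 293 and 209.9 CPM in normal 1 to normal 5. Every SCC library was far below every normal library, with SCC 2 and SCC 5 lowest. The mean was 25.8 ± 11.5 CPM in SCC and 298 ± 93.2 CPM in normal lung (SD, n = 5 each). Kdr fell by 3.67 on the log2 scale (SE 0.42, edgeR adjusted p = 7.53e-07).

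Flt1, the high-affinity and partly soluble receptor (chromosome 5, 147561604 to 147726011, minus strand), had 65.0, 50.1, 47.3, 44.8 and 89.8 CPM in SCC 1 to SCC 5. It had 223, 221, 332, 274 and 159 CPM in normal 1 to normal 5. The groups did not overlap, but they lay closer than those of Kdr. Flt1 fell by 2.12 (SE 0.37, edgeR adjusted p = 0.000161), and the call was lost with the chemosensory level as a covariate (-1.24, adjusted p = 0.263).

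Flt4, the Vegfc receptor (chromosome 11, 49609263 to 49652739, plus strand), had 9.43, 43.1, 29.2, 36.8 and 64.1 CPM in SCC 1 to SCC 5. It had 87.7, 68.4, 70.7, 98.8 and 73.4 CPM in normal 1 to normal 5. SCC 5 came close to the lowest normal library and SCC 1 was far below the rest. The log2 fold change of -1.21 (SE 0.42) was just past the threshold (edgeR adjusted p = 0.041). The call was lost under 12 of 21 alternatives, among them leaving out SCC 1, SCC 3, SCC 4, normal 1 or normal 4 (-1.01 to -1.33, adjusted p = 0.0507 to 0.0796). It was also lost in the low-signal pair (-0.69, adjusted p = 0.382).

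Nrp1, the coreceptor (chromosome 8, 128358604 to 128503363, plus strand), had 98.05, 87.5, 55.6, 104 and 46.5 CPM in SCC 1 to SCC 5. It had 495, 419.7, 639, 466 and 390.4 CPM in normal 1 to normal 5. The groups were separate by a wide gap. Nrp1 fell by 2.75 (SE 0.38, edgeR adjusted p = 1.11e-05).

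Tek, the angiopoietin receptor also known as Tie2 (chromosome 4, 94739289 to 94874976, plus strand), had 44.3, 24.9, 34.1, 41.8 and 13.9 CPM in SCC 1 to SCC 5. It had 263, 316, 406, 281 and 342 CPM in normal 1 to normal 5. Tek fell by 3.48 (SE 0.40, edgeR adjusted p = 9.06e-07). Tie1 (chromosome 4, 118471191 to 118490061, minus strand) had 19.8, 10.3, 20.4, 10.955 and 5.72 CPM in SCC 1 to SCC 5, and 165, 181, 143, 183 and 150.2 CPM in normal 1 to normal 5. Tie1 fell by 3.77 (SE 0.41, edgeR adjusted p = 5.17e-07). SCC 5 was the lowest library for both receptors.

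The background estimate was a different part of the counts on each receptor in SCC. It made up 64.1%, 22.7%, 70.6%, 49.5% and 17.7% of the Kdr counts in SCC 1 to SCC 5, and at most 0.587% in normal lung. For Tie1 it was 24.4% and 30.7% in SCC 2 and SCC 5 and 68.2% to 135% in the others. For Tek it was 34.3%, 11.1%, 44.7%, 38.9% and 13.9% in SCC 1 to SCC 5. It was at most 53.8% for Flt1 and at most 21.2% for Nrp1. For Flt4 it was 217%, 8.61%, 70.3%, 59.4% and 4.05% in SCC 1 to SCC 5. In the low-signal pair Kdr was at -4.47, Tek at -4.19 and Tie1 at -4.48 (edgeR adjusted p = 8.79e-07, 8.71e-07 and 1.34e-06), and after subtraction at -4.22, -3.54 and -4.73.

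**Figure D2:**
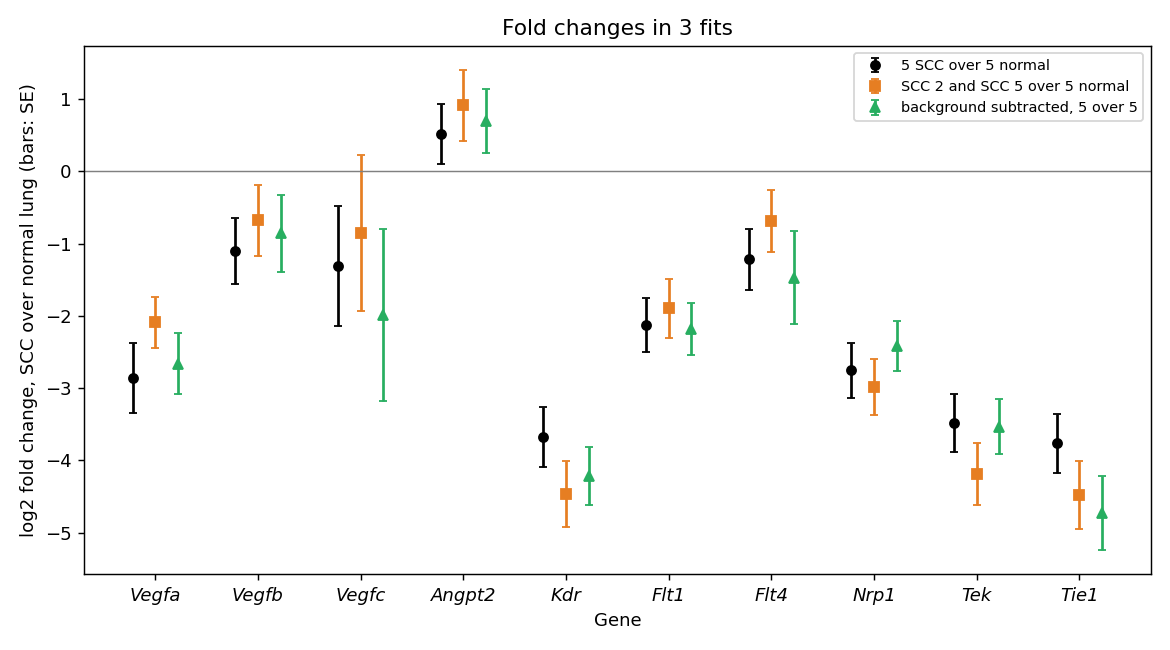
Log2 fold change of each gene, SCC over normal lung, with bars for the SE, from all libraries (black circles), from the low-signal pair SCC 2 and SCC 5 (orange squares) and after background subtraction (green triangles). Kdr, Tek and Tie1 lie below -3 in each fit, and Angpt2 lies above 0 in each.

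Levels of different genes were set side by side as CPM per kb of the longest annotated transcript. In normal lung the order was Vegfa (299 ± 45.1), Nrp1 (134 ± 26.8), Tek (69.1 ± 12.1), Kdr (50.3 ± 15.7), Vegfb (43.0 ± 7.52), Tie1 (38.8 ± 4.24), Flt1 (35.1 ± 9.41), Flt4 (12.8 ± 2.08), Angpt2 (10.7 ± 3.45) and Vegfc (4.92 ± 4.44, SD, n = 5). Libraries did not overlap between Vegfa and Nrp1, between Nrp1 and Tek or between Flt1 and Flt4, and all other neighbours in this order overlapped.

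In SCC the order was Vegfa (43.6 ± 31.7), Nrp1 (21.8 ± 7.14), Vegfb (21.1 ± 11.5), Angpt2 (16.8 ± 6.94), Flt1 (8.62 ± 2.72), Tek (6.84 ± 2.70), Flt4 (5.84 ± 3.19), Kdr (4.35 ± 1.94), Tie1 (3.17 ± 1.51) and Vegfc (2.12 ± 1.88, SD, n = 5). All neighbours in this order overlapped. Angpt2 stood at place 4 in SCC and at place 9 in normal lung, and Kdr at place 8 in SCC and at place 4 in normal lung. The chemosensory level was 3.26, 3.28 and 3.497 CPM per kb of coding length in SCC 1, SCC 3 and SCC 4. The SCC means of Kdr, Tie1 and Vegfc lay near or below that level.

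General endothelial markers were low in the same SCC libraries. Of 20 tested markers, 16 were lower in SCC, with a median log2 fold change of -2.81. Pecam1, an adhesion molecule between endothelial cells, was at -3.46 and Cdh5, their cadherin, at -3.48. The smallest p belonged to Tmem100 (-4.96) and Clec14a (-3.47). The summed level of the 20 markers was 598, 868, 692, 687 and 505 CPM in SCC 1 to SCC 5, and 5776, 5008, 7054, 5917 and 4896 CPM in normal 1 to normal 5. In the low-signal pair 11 markers were lower, where 738 of 14305 tested genes were lower.

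The 10 genes were therefore also compared per 1000 summed counts of these markers, in a fit with that sum in place of the library size. Calcrl was the largest part of the sum, with a mean of 222 of 670 CPM in SCC and 2238 of 5730 CPM in normal lung. With the sum of Pecam1, Cdh5 and Cldn5 instead, Kdr was at -0.12 and Vegfa at 0.86 (edgeR adjusted p = 0.803 and 0.157). The values below are from the sum of all 20 markers. In the fit with all 20 markers 96.6% of tested genes were higher in SCC, 0.0682% were lower and the median log2 fold change was 3.31. Of the 10 genes, 5 were higher relative to the markers (Vegfb, Vegfc, Flt1, Flt4 and Angpt2). The number lower was 0 in edgeR's test and also 0 at an unadjusted p under 0.05.

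Kdr had 50.5, 17.8, 39.7, 60.9 and 27.5 counts per 1000 marker counts in SCC 1 to SCC 5, and 43.1, 56.6, 64.4, 49.5 and 42.9 in normal 1 to normal 5. The groups overlapped, and the relative log2 difference was -0.41 (SE 0.40, edgeR adjusted p = 0.323). Tek was at -0.25 (SE 0.38), Tie1 at -0.55 (SE 0.47) and Nrp1 at 0.48 (SE 0.35) relative to the markers, with edgeR adjusted p of 0.515, 0.267 and 0.178. Against the markers, Kdr, Tek and Tie1 were lower in the low-signal pair (-1.20, -1.01 and -1.33, adjusted p = 0.0257, 0.0406 and 0.0368). After subtraction Kdr and Tie1 were lower (-1.09 and -1.69, adjusted p = 0.0345 and 0.0269). Over all tested genes, 22 of 14305 were lower against the markers in the low-signal pair and 23 of 11598 after subtraction.

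Flt1 had 109, 57.7, 68.4, 65.2 and 178 counts per 1000 marker counts in SCC 1 to SCC 5, and 38.6, 44.2, 47.1, 46.4 and 32.5 in normal 1 to normal 5. All SCC libraries lay above all normal libraries on this scale, and the relative difference was 1.19 (SE 0.38, edgeR adjusted p = 0.00595). Flt4 was at 2.04 (SE 0.49, adjusted p = 0.000649). Both Flt1 and Flt4 were below the median of 3.31 over all tested genes. Of the 20 markers themselves, 6 were higher in this fit and 1 was lower. Vegfa was at 0.42 (SE 0.50, adjusted p = 0.41), at 1.24 in the low-signal pair (adjusted p = 0.00822) and at -0.31 without SCC 5.

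Angpt2 had 61.5, 116, 81.1, 66.7 and 116 counts per 1000 marker counts in SCC 1 to SCC 5. It had 8.18, 8.05, 2.43, 7.89 and 8.13 in normal 1 to normal 5. The groups were far apart, with a relative difference of 3.68 (SE 0.45, edgeR adjusted p = 9.82e-07), close to the median of 3.31 over all tested genes. Vegfb, at 2.16 (SE 0.52, adjusted p = 0.000719), was below that median. Vegfc was at 1.88 (SE 0.83, adjusted p = 0.0361) and lost its call under 8 of 15 alternatives, among them leaving out SCC 1, SCC 2, normal 1, normal 2, normal 4 or normal 5 (adjusted p = 0.0537 to 0.156).

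**Figure D3:**
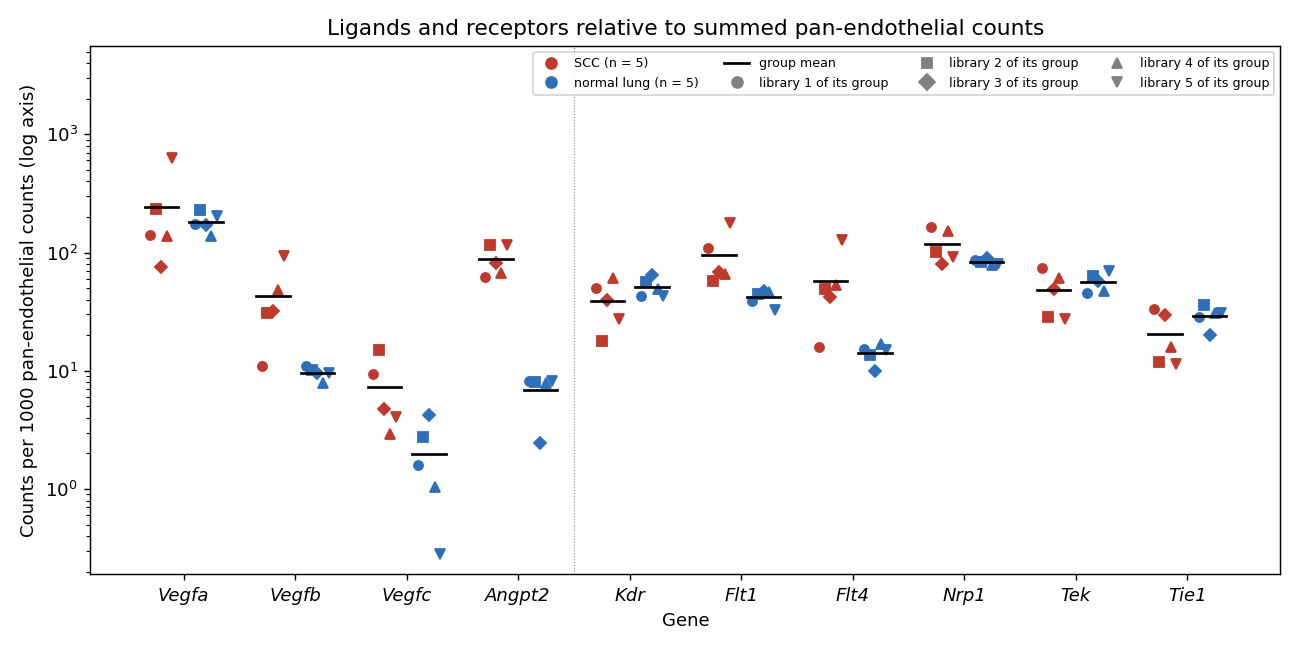
Counts of each gene per 1000 summed counts of 20 endothelial markers in each library, on a log axis, with SCC in red left of normal lung in blue and black bars for the group mean. All red points of Angpt2 and Flt1 lie above the blue ones, while those of Kdr, Tek and Tie1 overlap.

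The balance within pairs of related genes differed between the groups. Angpt2 made up 75.0%, 89.7%, 69.4%, 76.7% and 95.3% of the counts on Angpt1 and Angpt2 in SCC 1 to SCC 5. It made up 42.2%, 40.4%, 10.01%, 35.3% and 37.7% in normal 1 to normal 5. Every SCC library was above every normal library. The exact 95% binomial intervals, which cover counting error only, were widest in SCC 1 (61.1% to 86.0%). Angpt1, made by cells around vessels, was lower in SCC. It had 12.3, 11.6, 24.8, 13.9 and 2.86 CPM in SCC 1 to SCC 5, against 64.8, 59.5, 154, 85.6 and 65.9 CPM in normal 1 to normal 5 (log2 fold change -2.85, SE 0.48, edgeR adjusted p = 0.000118). The background estimate was 113%, 21.7%, 56.4%, 107% and 61.8% of the Angpt1 counts in SCC 1 to SCC 5, and its part in the share was not tested.

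Flt1 made up 68.3%, 76.4%, 63.2%, 51.7% and 86.6% of the counts on Flt1 and Kdr in SCC 1 to SCC 5. In normal 1 to normal 5 the share was 47.2%, 43.8%, 42.2%, 48.4% and 43.1%. The groups did not overlap, although the interval of SCC 4 (40.8% to 62.6%) reached the normal range. Nrp1 made up 40.5%, 42.6%, 33.1%, 43.9% and 14.5% of the counts on Nrp1 and Nrp2 in SCC 1 to SCC 5, and 75.1%, 69.8%, 77.8%, 65.2% and 63.0% in normal 1 to normal 5. SCC 5 was the lowest here. Nrp2, the coreceptor of lymphatic vessels and of some epithelial and tumour cells, was at -0.47 (SE 0.37, edgeR adjusted p = 0.415), with 275 CPM in SCC 5, 112 to 144 CPM in the other SCC libraries and 164 to 249 CPM in normal lung.

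Vegfa took 69.8%, 76.4%, 51.9%, 67.1% and 85.4% of the counts on the 5 VEGF family ligands in SCC 1 to SCC 5. In normal 1 to normal 5 it took 87.1%, 90.3%, 88.3%, 88.8% and 90.7%. SCC 5 came within 2 points of the lowest normal library. The shares were described and not tested, because the genes were chosen with earlier results known.

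**Figure D4:**
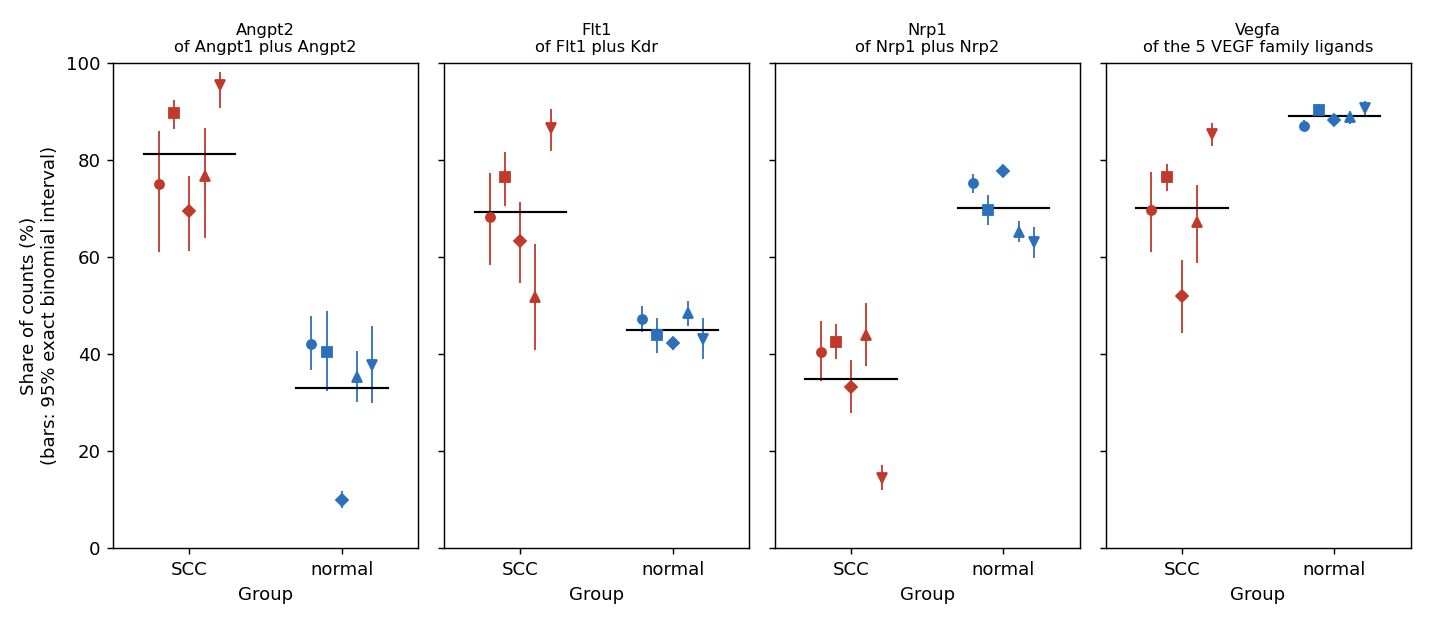
Share of counts in percent for 4 pairs or families, 1 point per library with its exact 95% binomial interval, SCC in red left of normal lung in blue, with black bars for the group mean. For the Angpt2 and Flt1 shares all red points lie above the blue ones, and for the Nrp1 and Vegfa shares below them.

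Among the remaining family genes, Vegfd (listed as Figf), a lymphatic ligand, was lower in SCC (-2.24, SE 0.48, edgeR adjusted p = 0.00132). Ptprb, the endothelial phosphatase that restrains Tek, was at -3.49 (SE 0.46, adjusted p = 5.64e-06), with 65.3 to 300.4 CPM in SCC and 1377 to 1829.5 CPM in normal lung. Pgf, a ligand of Flt1, had at most 10.5 CPM in SCC and at most 13.8 CPM in normal lung and was not tested. Angpt4 had 4, 1, 20, 3 and 4 counts in SCC 1 to SCC 5 and none in normal lung. The estimated background was 69.6% of these counts in SCC 3, 59.3% in SCC 5 and over 100% in the other SCC libraries.

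Semaphorins and plexins, some of which share Nrp1 with VEGF, were largely lower. Of 12 tested, 8 were lower, with a median of -1.55. In the low-signal pair 7 were lower, where 738 of 14305 tested genes were lower. Sema3c was at -2.60 and Sema3g at -2.57 (edgeR adjusted p = 0.000146 and 0.000236). Plxnd1, an endothelial semaphorin receptor, was at -1.62.

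Of 37 tested intracellular partners of the VEGF receptors, 8 were lower, 1 was higher and 28 were not called, with a median of -0.57. Crk, an adaptor, was at -1.40 (edgeR adjusted p = 0.00352), and Src, a kinase, was higher (1.22, adjusted p = 0.0460). In the low-signal pair the number lower was 2, where 738 of 14305 tested genes were lower. After background subtraction 3 were lower and none higher, where 798 of 11598 tested genes were lower. Of 10 genes around Tek and its target factor Foxo1, 4 were lower, with a median of -0.61, and 2 were lower in the low-signal pair. Klf2, an endothelial factor induced by flow, was at -2.91 and Grb14, an adaptor, at -2.45.

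Of 13 tested angiogenic factors outside the family, 6 were lower, with a median of -1.07, and 3 after background subtraction. Egfl7, an endothelial matrix protein, was at -2.88 and Efnb2, an arterial ligand, at -2.03. Of 10 inhibitors of vessel growth, 3 were lower and 1 was higher, with a median of -0.40. Timp3, an inhibitor that binds Kdr, was at -3.09. Col4a3, a basement membrane chain that is also among the alveolar type 1 markers, was at -2.46. Thbs2, a thrombospondin, was higher (3.25, edgeR adjusted p = 0.00515). No inhibitor was higher in the low-signal pair or after subtraction.

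Targets of the hypoxia response, of which Vegfa is a textbook example, were not lower beside Vegfa. Of 18 tested targets, 7 were higher in SCC and 11 were not called, with a median of 0.81, where 12.5% of all tested genes were higher. In the low-signal pair 9 were higher, where 592 of 14305 tested genes were higher. Egln3, an oxygen-sensing hydroxylase, had 14.1, 86.1, 17.6, 4.98 and 137 CPM in SCC 1 to SCC 5, against 0, 4.10, 0, 1.93 and 2.06 CPM in normal 1 to normal 5 (log2 fold change 5.15, SE 0.98, edgeR adjusted p = 0.000407). Ddit4, a stress-induced inhibitor of mTOR, was at 2.95 (adjusted p = 0.00312), and Slc2a1, the main glucose transporter, at 2.15. SCC 2 and SCC 5, the low-signal pair, were highest for both Egln3 and Vegfa among SCC libraries. The background estimate was 61.4%, 1.83%, 49.6%, 187% and 0.807% of the Egln3 counts in SCC 1 to SCC 5. Its part in this order was not tested.

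Genes of endothelial tip cells, which lead new sprouts and are rich in Angpt2, had 4 of 10 lower, with a median of -1.35. Plvap, a protein of vessel fenestrae, was at -3.54 and Dll4, a Notch ligand, at -2.96. The other 6 tested were not called, among them Unc5b at 1.18 and Nid2 at 0.74 (edgeR adjusted p = 0.0523 and 0.493). Kcne3 and Adm were not tested, with means of 16.0 and 14.0 CPM in SCC and 0.556 and 2.10 CPM in normal lung. Of 8 tested lymphatic markers 1 was lower, Lyve1 at -4.04, and 7 were not called. Prox1, the defining lymphatic factor, had a mean of 32.9 CPM in SCC and 11.9 CPM in normal lung (log2 fold change 1.30, edgeR adjusted p = 0.162). Fgl2 was at -1.48 (adjusted p = 0.0823), and Ccl21a was at 0 in all libraries. Of 10 pericyte markers, 2 were lower, Cox4i2 at -2.74 and Pdgfrb at -1.41, with a median of -0.14. Their summed level was 233 to 474 CPM in SCC and 424 to 544 CPM in normal lung.

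**Figure D5:**
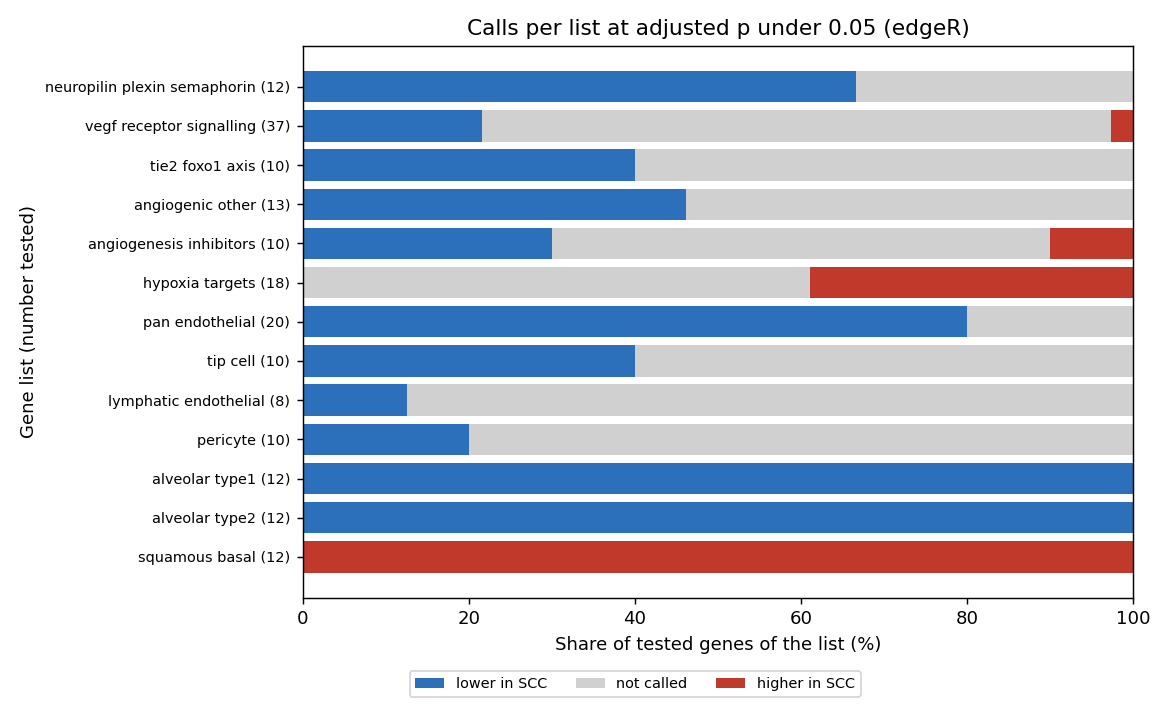
Share of the tested genes of each list that were lower in SCC (blue), not called (grey) or higher in SCC (red) at an edgeR adjusted p under 0.05, with the number tested in brackets. The endothelial list is mostly blue, the hypoxia list has 7 of 18 genes in red, and the alveolar and squamous lists are of 1 colour each.

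Other markers describe the captured regions. All 12 squamous and basal cell markers were higher in SCC, with 1330 to 9348 CPM in SCC and 26.2 to 85.1 CPM in normal lung and Krt4, a keratin, at 11.1. Of 12 fibroblast markers 6 were lower, Inmt at -4.61 among them. Of 10 macrophage markers 1 was higher, Arg1 at 9.74, and 2 were lower, Lyz1 at -3.64 and Csf1r at -1.46. The other 7 were not called, and the summed level of the list was 456 to 1291 CPM in SCC and 1255 to 1527 CPM in normal lung. Of 3 tested erythroid genes 2 were lower, Alas2 at -3.89 among them, with 8.17 to 49.0 CPM in SCC and 64.3 to 262 CPM in normal lung. The part of these cells in the results was not tested.

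Genes whose centred log2 CPM over the 10 libraries lay closest to that of Vegfa were Timp3, Pxdc1 and Clic4, at root mean square differences of 0.41, 0.41 and 0.43. Closest to Kdr were Lamp3, Gucy1b3 and Gucy1a3, at 0.26, 0.34 and 0.44. Closest to Angpt2 were Ildr1, Myo5a and Phka2, at 0.33, 0.36 and 0.38. For Vegfa and Kdr the likeness rests mainly on the difference between the groups.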

How the data were processed

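The deposited table holds raw counts per gene symbol, 1 column per library, as the authors made it with no scaling. The tools named in the submitters' processing notes are HTSeq 0.6.1, TopHat2 2.0.1, cutadapt 1.9.1 and DESeq2, and the build is mm10. Annotation and strand setting: not given in the sources used here. Total counts of 1004105 to 6817106 per library set the precision.

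The fit used edgeR 4.0.16 (R 4.3.3). Genes were filtered with filterByExpr by group, which left 13203, scaled with TMM and tested by robust quasi-likelihood without covariates. Adjusted p (Benjamini-Hochberg, over all tested genes) under 0.05 was a call. The SE is the log2 fold change divided by the square root of F. A second fit used the summed counts of 20 endothelial markers as library size. Gene positions and lengths are those of GENCODE M21 (GRCm38), which matched 23384 genes by symbol and 678 by an older one. Promoter sequences are from RefSeq (GRCm38.p6). Protein sequences were not used here.

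The background estimate took the counts per kb of coding length on 1425 chemosensory receptor genes, capped at the 98th percentile in each library, times the length of the longest transcript of each gene. The members and lists were chosen with earlier results of these data known. Some lists share genes and are not independent. Col4a3 and Sema3e are in the alveolar type 1 list and also in the inhibitor and semaphorin lists. Plxnd1 and Adm are in the tip cell list and also in the semaphorin and angiogenic factor lists. The named genes are the 10 members, 6 family genes, the 2 genes of smallest p in each list (1 for epithelial, fibroblast, macrophage and erythroid markers) and the 3 genes closest to Vegfa, Kdr and Angpt2 among genes averaging 5 CPM or more, by log2 CPM with a prior count of 2. Of the genes this rule names, 1 is not reported here. Pecam1, Cdh5, Calcrl, Plxnd1, Sema3e, Src, Thbs2, Slc2a1, Prox1, Ccl21a and Mcph1 were named after their values were seen. So were Unc5b, Nid2, Kcne3, Adm, Lyz1 and Csf1r. Alternatives were 2 other scalings, 2 other filters, the DESeq2 1.42.0 Wald test, limma-voom (limma 3.58.1), no robust estimation, the library subset, background by coding length or as a covariate, and leaving out each library. Background by transcript length was added after seeing the data.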

Additional observations from a re-analysis of the deposited data

Results flagged for a closer look

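Normal 3 stood apart from the other normal libraries for Angpt2, with 17.2 CPM, where the nearest of the others had 39.8 CPM. The share of Angpt2 in the counts on Angpt1 and Angpt2 was 10.01% in the same library, where the nearest of the others had 35.3%. Both gaps were large for a group of 5 by Dixon's criterion, which chance passes in about 1 in 20 groups, and 28 groups were looked at. Normal 3 was the deepest library, at 6817106 counts. Without it the Angpt2 log2 fold change was 0.27 and the difference in share was 42.3 percentage points.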

How the results depend on the processing

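No paired analysis within animals was possible, because SCC came from mice given NTCU and normal lung from untreated mice. The labels also give no number, animal or batch that links SCC and normal libraries. The fold changes of the 10 genes were recomputed under 21 alternatives, and 192 of 210 values kept their direction and call. 12 of the 14 lost calls were those of Flt4. Kdr, Nrp1, Tek and Tie1 were called lower under each alternative, and Vegfa and Flt1 under each but the covariate fit. With the chemosensory level as a covariate 4 genes were lower in place of 7, Vegfc was at 0.72 and, of the genes named from the lists, Nrp2 was at 0.077 and Fgl2 at 0.19, all opposite in sign to the values reported. Relative to the endothelial markers, 135 of 150 values kept their direction and call. In the low-signal pair 3 genes were lower than the markers and after background subtraction 2 were, in place of 0. The same fits had 22 of 14305 and 23 of 11598 tested genes lower. With 1 library left out at a time, the relative Vegfa value ran from -0.31 without SCC 5, opposite in sign, to 0.65 without SCC 3 (0.42 with all), and in the low-signal pair it was 1.24. In that pair the SCC minus normal difference was 36.6 points for the Flt1 share (24.3 with all) and -8.13 points for the Vegfa share (-18.9 with all). Upper-quartile scaling moved the median of all genes by 0.20 on the log2 scale and testing without a filter by -0.39, and none of the 10 genes changed direction with either. Of 13203 tested genes 1645 were called higher and 1146 lower, against 463 and 373 in the covariate fit and 3259 and 2766 in limma-voom on the same genes. DESeq2 called 6378 and 1389 of 24421 genes, and edgeR with no filter 5470 and 2072 of 22919. The cause of these changes was not tested. Low counts limit Vegfc, Pgf and Angpt4.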
